A study of Homo sapiens with 16 samples.

Results

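The regions described here were open in MOLT4 cells given DMSO and not in DND41 cells given DMSO, as far as deposited peak lists show. MOLT4 and DND41 are long-established human cell lines, each derived from a T-cell acute lymphoblastic leukaemia. ATAC-seq was used to map open chromatin: the Tn5 enzyme cuts and tags accessible DNA, and a peak marks a stretch with many such cuts. Peaks of all 16 libraries on chromosomes 1 to 22 and X were merged into regions wherever they shared at least 1 base. A region was chosen when all 4 MOLT4 DMSO libraries had a peak in it and none of the 4 DND41 DMSO libraries did. This rule gave 4543 MOLT4-only regions among 131357 regions, or 3.46%. They made up 16.8% of the 27066 regions with a peak in all 4 MOLT4 DMSO libraries. For comparison, 18483 regions had a peak in all 8 DMSO libraries and are called shared, and 4040 had a peak in all 4 MOLT4 and in 1 to 3 of the DND41 DMSO libraries.

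SWI/SNF complexes use the ATPase SMARCA2 or SMARCA4 to move nucleosomes, and they hold many enhancers accessible. ACBI-1 is a PROTAC, a molecule that brings a protein to an E3 ubiquitin ligase for degradation, and its targets are SMARCA2, SMARCA4 and the PBRM1 subunit. Enhancers differ between cell types more than promoters do, and sites open in 1 of a pair of related lines are commonly distal.

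There were 8 groups of 2 libraries: MOLT4 with 100 nM ACBI-1 for 24 h, MOLT4 with DMSO for 24 h, MOLT4 with 100 nM ACBI-1 for 3 h, MOLT4 with DMSO for 3 h, and the same 4 for DND41. All cells were grown in the same medium, and each line is 1 established culture. Lines were taken from the sample titles, which matched the line code in the peak names of all 16 lists, whereas the cell line field of 8 samples named the other line. The labels are silent on whether replicate libraries had separate cultures behind them, so the p-values reflect spread that may be technical. The lists held 28751 to 33870 peaks in MOLT4 ACBI-1, 39117 to 45098 in MOLT4 DMSO, 26145 to 33145 in DND41 ACBI-1 and 39123 to 46712 in DND41 DMSO libraries. The lists give positions without heights or read totals, so depth is unknown and a region without a peak may lie under the detection limit of its library. In these bulk libraries, fewer cells with an open site and less access per cell cannot be told apart. Peak names carried 1 tag at 24 h and another at 3 h, so time and whatever the tag stands for cannot be told apart.

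The first question was what became of the MOLT4-only regions when MOLT4 cells received ACBI-1. By the rule every MOLT4 DMSO library had all of them. With ACBI-1 at 24 h, 2039 of them (44.9%) had a peak in replicate 1 and 1889 (41.6%) in replicate 2, a mean of 43.2% ± 2.33 (SD, n = 2). At 3 h, 2709 (59.6%) had a peak in replicate 1 and 2941 (64.7%) in replicate 2, a mean of 62.2% ± 3.61 (SD, n = 2). Both 24 h libraries lay below both 3 h libraries, a difference of -19.0 percentage points. Exchanging 2 libraries against 2 cannot give less than the exact permutation p of 0.333 found here. Shared regions had a peak more often in each of these libraries, with a mean of 80.4% ± 1.37 at 24 h and 90.1% ± 1.82 at 3 h (SD, n = 2 each). Over all 27066 regions found in the 4 MOLT4 DMSO libraries, the means were 69.1% ± 1.73 at 24 h and 81.6% ± 2.60 at 3 h (SD, n = 2 each).

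**Figure D1:**
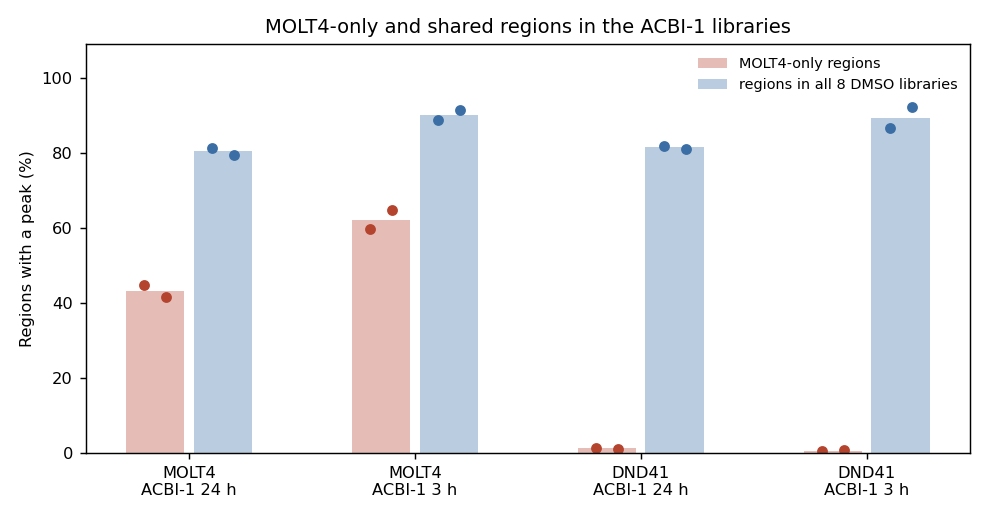
Percent of MOLT4-only regions and of regions found in all 8 DMSO libraries that had a peak in the ACBI-1 libraries, by line and time. Points are libraries and bars are means of 2. In MOLT4 the MOLT4-only regions lie at 43.2% at 24 h and 62.2% at 3 h, below the shared regions at 80.4% and 90.1%, and in DND41 they lie near 0.

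Region by region, 2218 MOLT4-only regions (48.8%) had no peak in either MOLT4 ACBI-1 library at 24 h, where 24.8% of all regions found in the 4 MOLT4 DMSO libraries had none. At 3 h, 1205 (26.5%) had no peak in either library, against 11.5% over those regions. A peak was missing from all 4 MOLT4 ACBI-1 libraries at 981 members (21.6%), against 8.88%, and present in all 4 at 1316 (29.0%), against 58.8%. The same 2 classes held 4.10% and 72.9% of shared regions. In the remaining members the peak was found in 1 library at 761, in 2 at 902 and in 3 at 583. Replicates gave the same answer at 84.1% of the members at 24 h and at 77.4% at 3 h.

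The times were nested in most members. Of the 1205 without a peak in either 3 h library, 981 (81.4%) were also without one at 24 h, whereas both 24 h libraries had a peak at 82 (6.80%). Of the 2312 members with a peak in both 3 h libraries, 618 (26.7%) were without one in both 24 h libraries and 1316 (56.9%) still had one in each. Absence at 24 h after presence in both 3 h libraries was found in 7.47% of the shared regions with a peak in both 3 h libraries. The 618 members present at 3 h and absent at 24 h thus far outnumbered the 82 with the reverse order. The same held for shared regions, with 1183 against 94, and for all regions found in the 4 MOLT4 DMSO libraries, with 2346 against 259. This order was thus not particular to the members.

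**Figure D2:**
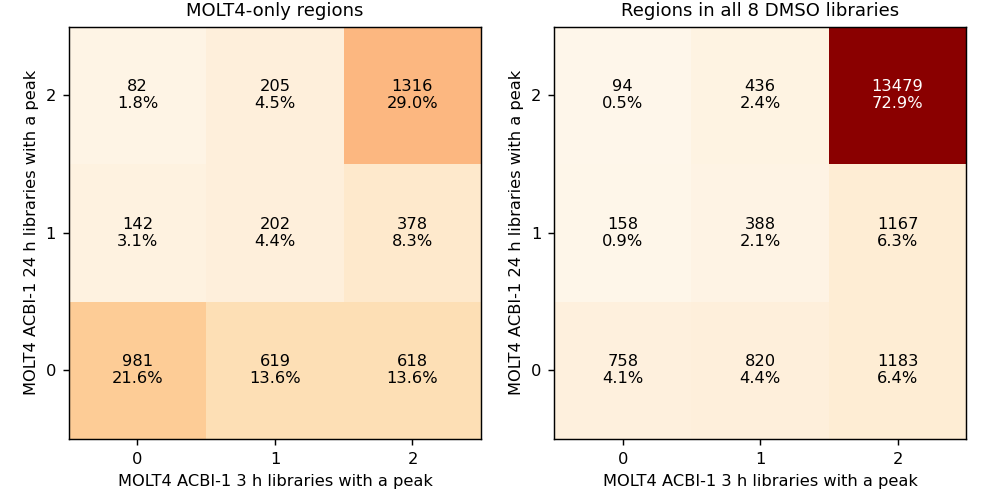
Number and percent of MOLT4-only regions (left) and of regions in all 8 DMSO libraries (right) by how many of the 2 MOLT4 ACBI-1 libraries had a peak at 3 h (horizontal) and at 24 h (vertical); darker cells hold more regions. MOLT4-only regions divide mainly between 4 classes, with 981 in no library and 1316 in all 4, while 72.9% of the shared regions are in all 4.

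Because the rule sets every MOLT4 DMSO library at 100%, ACBI-1 cannot be compared with DMSO on the members themselves. A comparison free of this fixed value was made on sites chosen at the other time. These sites still came from DMSO libraries, so a site with a peak only under ACBI-1 could not enter. The choice thus favours a lower share in MOLT4 ACBI-1 than in MOLT4 DMSO libraries. Libraries of 24 h were scored on 8518 regions with a peak in both MOLT4 DMSO and neither DND41 DMSO library of 3 h, and libraries of 3 h on 7317 regions chosen at 24 h. At 24 h, 31.9% and 28.7% of the sites had a peak in the MOLT4 ACBI-1 libraries, against 70.5% and 69.5% in the MOLT4 DMSO libraries. At 3 h the values were 50.8% and 55.4% in the ACBI-1 libraries, against 84.9% and 86.0% in the DMSO libraries. The groups did not overlap at either time, and ACBI-1 was lower in 8 of 8 pairs of libraries of the same time. Over both times the share was 41.7% ± 13.4 in ACBI-1 and 77.7% ± 8.92 in DMSO libraries (SD, n = 4 each). The difference was -36.0 points, with a two-sided exact permutation p of 0.0556 when labels were exchanged within each time. That is the smallest p the 36 exchanges allow, and adjustment over the 16 such tests made left it at 0.0556. With every list reduced to its 26145 widest peaks, the difference was -20.1 points.

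Shared sites, chosen in the same way but with a peak required in the DMSO libraries of both lines, had a smaller difference. A peak was found at 78.7% ± 8.91 of them in MOLT4 ACBI-1 libraries and at 94.1% ± 3.04 in MOLT4 DMSO libraries (SD, n = 4 each), a difference of -15.4 points. The difference at MOLT4-only sites exceeded that at shared sites by -20.6 points (-19.4 at 24 h and -21.9 at 3 h), with the smallest exact permutation p of 0.0556 and in 8 of 8 pairs. The choice may favour this gap, since shared sites had to have a peak in more choosing libraries than MOLT4-only sites. In MOLT4 DMSO libraries 94.1% of shared sites had a peak, against 77.7% of MOLT4-only sites. How much of the gap comes from the choice was not tested, and no call is made from its p. With lists of equal length the gap was -13.9 points, and leaving out each library in turn gave -21.0 to -14.3 points. In ratios, MOLT4 ACBI-1 libraries had 0.536 of the DMSO share at MOLT4-only sites and 0.836 at shared sites. The ACBI-1 difference in MOLT4 was -39.7 points at 24 h and -32.3 points at 3 h. These times were scored on different sites, and the contrast of -7.44 points between them had an exact permutation p of 0.556, in a test chosen after the values were seen. It became positive, at 2.03 and 4.98 points, when the first and when the second MOLT4 DMSO library of 3 h was left out. It was -12.6 and -14.7 points when the first and when the second MOLT4 DMSO library of 24 h was left out, -12.3 points with peaks of at least 200 bp and -17.9 points with lists of equal length.

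**Figure D3:**
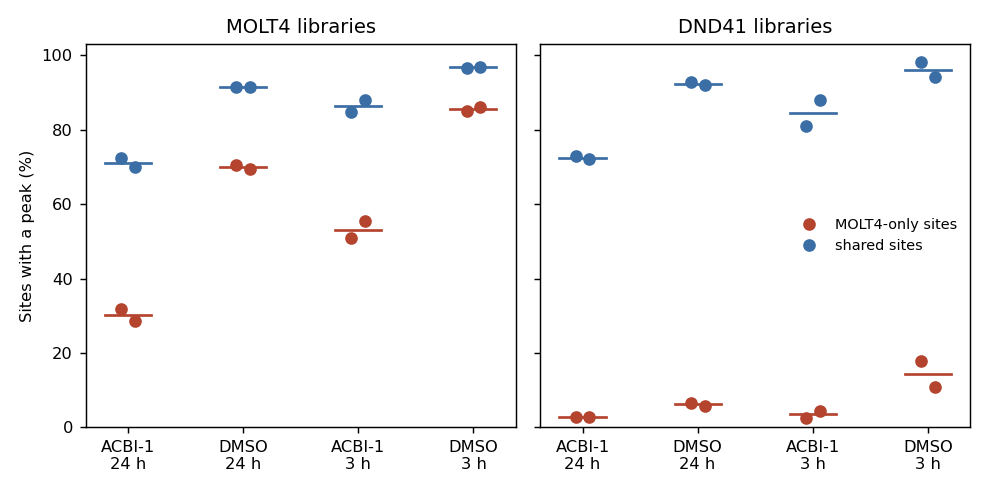
Percent of sites with a peak in each library, for sites chosen from the DMSO libraries of the other time: MOLT4-only sites in red and shared sites in blue, in MOLT4 libraries (left) and DND41 libraries (right). Points are libraries and lines are means of 2. In MOLT4 the ACBI-1 libraries lie below the DMSO libraries at each time, with differences of -39.7 points at 24 h and -32.3 points at 3 h at MOLT4-only sites.

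DND41-only sites, chosen by the mirrored rule, had a similar value in their own line. DND41 ACBI-1 libraries had a mean of 28.2% of them at 24 h (28.6% and 27.8%). DND41 DMSO libraries had 61.3% at 24 h (62.6% and 60.0%). At 3 h the replicates lay farther apart, with a mean of 42.8% with ACBI-1 (35.3% and 50.2%), against 74.1% with DMSO (82.2% and 66.1%). The ACBI-1 effect at MOLT4-only sites in MOLT4 minus that at DND41-only sites in DND41 was -3.81 points, with an exact permutation p of 0.588. Leaving out each library in turn gave -14.3 to 2.55 points, positive without replicate 2 of MOLT4 DMSO at 3 h. A difference between the lines was not shown, which does not mean that the effects were equal.

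Width, the only size that the lists give, varied widely among the members. The median MOLT4 DMSO peak width of a member was 389.5 bp over all members, with quartiles of 290.5 and 530 bp and extremes of 151 and 1572.5 bp. Shared regions were wider, with a median of 608 bp and quartiles of 420.5 and 818 bp. Width followed fate: the median was 272.5 bp for members in no MOLT4 ACBI-1 library, 326.5 bp in 1, 377 bp in 2, 437.5 bp in 3 and 582 bp in all 4. Members in both 3 h libraries and neither 24 h library had a median of 386.25 bp.

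When the members were divided by width into 5 classes of about equal size, those of 151 to 270 bp had a peak in 13.5% ± 1.17 of cases in MOLT4 ACBI-1 libraries at 24 h and in 27.1% ± 2.73 at 3 h (SD, n = 2 each). In the next 4 classes, bounded at 350.9, 437.5 and 570 bp, the 24 h means were 23.6%, 36.4%, 57.3% and 85.1%, and the 3 h means 47.6%, 62.9%, 79.1% and 94.1%. Shared regions within the same width limits had higher means in each class. Their 24 h means ran from 39.5% in the narrowest to 96.5% in the widest, and their 3 h means from 54.7% to 98.9%. Both 24 h libraries of MOLT4 had a lower share of members than of shared regions in all 5 classes, as did both 3 h libraries. Of the members, 20.1% lay in the widest class, against 55.1% of shared regions, and 19.9% lay in the narrowest, against 6.08%.

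**Figure D4:**
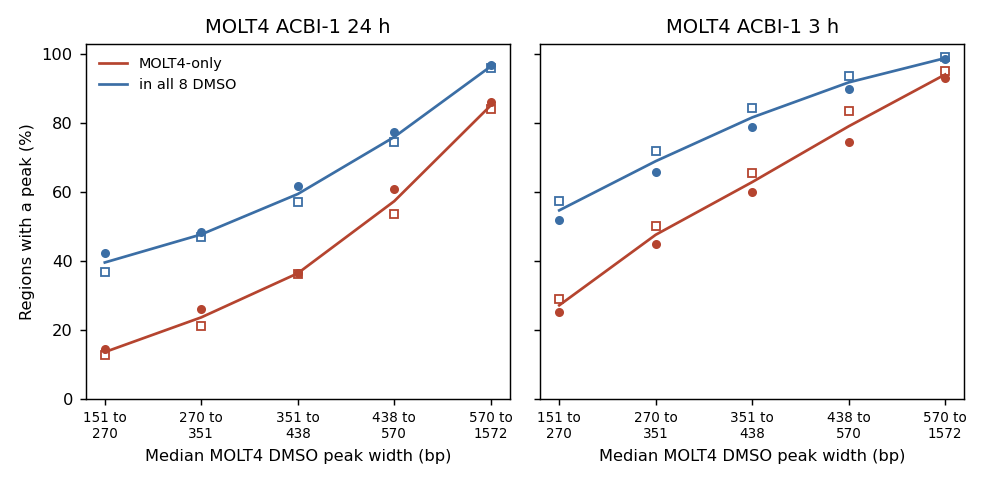
Percent of MOLT4-only regions (red) and of regions in all 8 DMSO libraries (blue) with a peak in MOLT4 ACBI-1 libraries at 24 h (left) and 3 h (right), in 5 classes by median MOLT4 DMSO peak width. Filled circles are replicate 1, open squares replicate 2 and lines their means. Both kinds are higher in wider classes, and MOLT4-only regions lie lower in every class, at 13.5% against 39.5% in the narrowest class at 24 h and 85.1% against 96.5% in the widest.

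The same was measured on sites chosen at the other time, in 3 width classes of the DMSO peaks. At narrow MOLT4-only sites 24.5% ± 12.8 had a peak in MOLT4 ACBI-1 libraries, against 65.1% ± 14.7 in MOLT4 DMSO libraries (SD, n = 4 each). At middle sites the shares were 53.1% ± 19.3 with ACBI-1, against 90.02% ± 4.27 with DMSO, and at broad sites 86.7% ± 5.86 with ACBI-1, against 98.8% ± 0.427 with DMSO (SD, n = 4 each). MOLT4-only sites exceeded shared sites in the size of this difference by -8.89 points in the narrow class, -15.8 points in the middle class and -9.13 points in the broad class, each with the smallest exact permutation p of 0.0556. The gap between MOLT4-only and shared sites was thus smaller within each width class than the -20.6 points over all widths. The choice of shared sites in more libraries may favour the gap in each class too.

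The 1316 members with a peak in all 8 MOLT4 libraries were chosen alike in both arms, so their widths can be compared. Their geometric mean width at 24 h was 514 and 478 bp in the ACBI-1 libraries, against 622 and 587 bp in the DMSO libraries. At 3 h it was 429 and 473 bp in the ACBI-1 libraries, against 533 and 542 bp in the DMSO libraries. The groups did not overlap at either time. Their width differed between ACBI-1 and DMSO by -18.1% at 24 h and -16.2% at 3 h, together -0.27 on the log2 scale, with the smallest exact permutation p of 0.0556. The 13479 shared regions with a peak in all 8 MOLT4 libraries differed by -13.6% at 24 h and -8.72% at 3 h.

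By member, 533 of the 1316 (40.5%) were narrower in both ACBI-1 than in both DMSO libraries at 24 h, where 42.8% of all 15915 regions found in the 8 MOLT4 libraries were. At 3 h, 536 members (40.7%) were narrower without overlap, against 33.7% of those regions. Members wider without overlap numbered 99 (7.52%) at 24 h, against 7.8%, and 85 (6.46%) at 3 h, against 7.86%. The share of narrower members was thus near that of all regions at 24 h and above it at 3 h.

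The widest members kept a peak with ACBI-1. All 10 members with the largest median DMSO width had one in all 4 MOLT4 ACBI-1 libraries and none in any DND41 ACBI-1 library. Regions are named by hg19 position, counted from 1. The widest, chr1:85666101-85667807, measured 1452 and 1283 bp with ACBI-1 at 24 h, against 1553 and 1592 bp with DMSO at 24 h. At 3 h it measured 1188 and 1431 bp with ACBI-1, against 1707 and 1526 bp with DMSO. Its 4 ACBI-1 widths lay below its 4 DMSO widths. A member of much the same size, chr2:88315128-88316912, measured 1694 and 1485 bp with ACBI-1 at 24 h, against 1358 and 1535 bp with DMSO, and 835 and 1369 bp with ACBI-1 at 3 h, against 1236 and 1289 bp with DMSO. Its ACBI-1 and DMSO widths overlapped at both times.

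Among these 10, chr2:18059411-18060926 had the lowest mean width with ACBI-1. Its ACBI-1 widths were 492 and 475 bp at 24 h, against 1246 and 1358 bp in DMSO libraries. At 3 h they were 475 and 1048 bp, against 1420 and 746 bp in DMSO libraries. The means were 622.5 bp ± 284 with ACBI-1 and 1192.5 bp ± 306 with DMSO (SD, n = 4 each), and the groups did not overlap at 24 h but did at 3 h. The 5 next widest members with a peak in all 4 ACBI-1 libraries had mean widths of 747.5 to 1303.25 bp with ACBI-1, against 1190.5 to 1280.5 bp with DMSO. The lowest of these, chr4:42399192-42400613, measured 773 and 522 bp with ACBI-1 at 24 h, against 856 and 1412 bp with DMSO.

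A wide DMSO peak did not always go with a peak under ACBI-1. The widest member without a peak in any MOLT4 ACBI-1 library was chr12:133449208-133450056, which measured 762 and 830 bp with DMSO at 24 h and 746 and 372 bp with DMSO at 3 h. The next were chr2:231789551-231790535 with a median DMSO width of 705 bp, chr7:101807700-101808793 with 642 bp, chr7:140602164-140603046 with 623.5 bp and chr2:111914681-111915458 with 607.5 bp. All 5 lay above the median of 582 bp of the members found in all 4 ACBI-1 libraries.

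Members were mostly scattered. With members no more than 12500 bp apart joined, 4029 stood alone, 220 pairs held 2, and 23 clusters held 3 or more, namely 19 of 3, 3 of 4 and 1 of 5. These 23 clusters held 74 members, or 1.63%. Clusters of at least 2 held 514 members (11.3%), against 29.1% of the 18483 shared regions, a larger set, and the sets were not compared at equal number. The members' share was 5.24% with a gap of 5 kb, 18.9% with 25 kb and 6.72% with lists of equal length. Without replicate 2 of MOLT4 DMSO at 24 h, 37 clusters of at least 3 were found. A gap of 5 kb gave 4 such clusters, a gap of 25 kb gave 62 and lists of equal length gave 10.

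The largest cluster, chr5:87956576-87979736, spans 23161 bp with 5 members. Of these 5, 3 and 5 had a peak with ACBI-1 at 24 h and all 5 in both 3 h libraries. Its widest member, chr5:87969982-87971260, measured 1062 and 1007 bp with ACBI-1 at 24 h, against 1086 and 1095 bp with DMSO, and 1175 and 1097 bp with ACBI-1 at 3 h, against 1231 and 1088 bp with DMSO. The 2 members missing from replicate 1 at 24 h were chr5:87962449-87963133 and chr5:87979365-87979736, with median DMSO widths of 452.5 and 351 bp. The neighbour of the widest member, chr5:87971558-87972103, measured 449 and 325 bp with ACBI-1 at 24 h, against 525 and 540 bp with DMSO, and 157 and 338 bp with ACBI-1 at 3 h, against 430 and 542 bp with DMSO. The ACBI-1 widths of the neighbour lay below its DMSO widths at both times, while those of the wide member did so at 24 h and overlapped at 3 h.

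Similar differences were found inside the 3 clusters of 4. In chr17:76704625-76733203, which spans 28579 bp, all 4 members had a peak with ACBI-1 in both 3 h libraries and 2 had one in each 24 h library. The members absent at 24 h, chr17:76712973-76713446 and chr17:76721546-76722423, lie between the others. In chr3:133199108-133218374, 1 member had a peak in each ACBI-1 library at 24 h, and 3 and 2 at 3 h. That member, chr3:133209390-133210403, was the widest of the cluster, with 308 and 597 bp with ACBI-1 at 24 h, against 926 and 734 bp with DMSO. Its neighbour chr3:133199108-133199439, with a median DMSO width of 282.5 bp, had no peak in any ACBI-1 library.

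In chr9:124494826-124511207, 3 of 4 members had a peak in each ACBI-1 library at 24 h and all 4 in each at 3 h. One of them, chr9:124506725-124507232, kept nearly the same width throughout, at 449 and 462 bp with ACBI-1 at 24 h, against 459 and 459 bp with DMSO, and 466 and 491 bp with ACBI-1 at 3 h, against 454 and 466 bp with DMSO. Another, chr9:124494826-124495735, measured 315 and 182 bp with ACBI-1 at 24 h, against 910 and 833 bp with DMSO, and 204 and 271 bp with ACBI-1 at 3 h, against 441 and 577 bp with DMSO. Yet another, chr9:124500186-124501156, had no peak with ACBI-1 at 24 h, against 780 and 971 bp with DMSO. The 6 clusters of widest span among the 19 of 3 members lay on chromosomes 10, 13, 9, 8, 11 and 7.

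**Figure D5:**
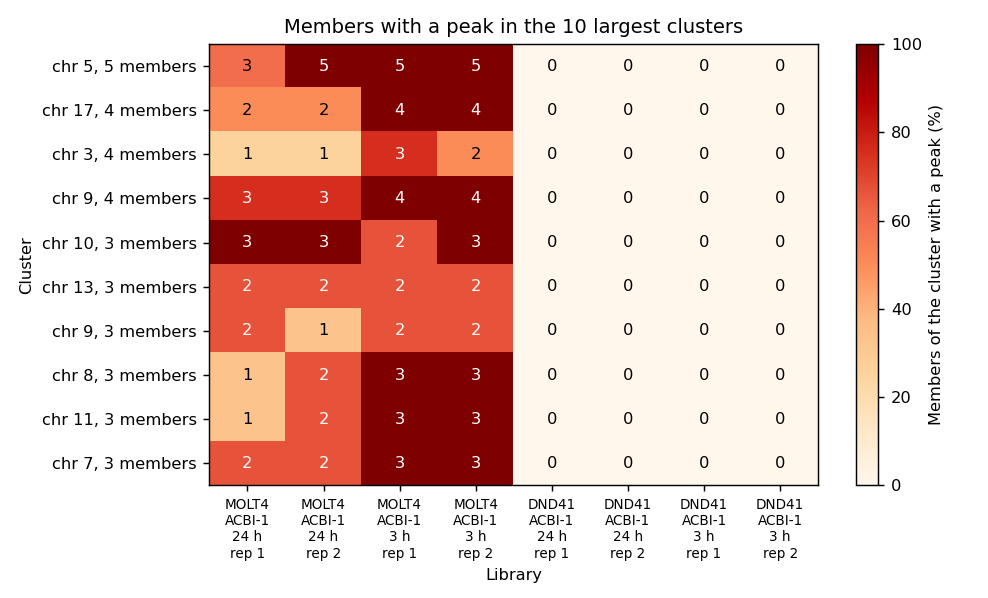
Number of members with a peak in each ACBI-1 library, for the 10 clusters with most members, of 19 with 3 members the 6 of widest span (rows, named by chromosome and size); columns are libraries and the colour gives the percent of the cluster's members. The 4 DND41 columns are 0 throughout, and in MOLT4 the cluster of 5 on chromosome 5 has 3 and 5 members at 24 h and 5 in both libraries at 3 h.

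Over all members, those in clusters of at least 2 had a peak slightly more often with ACBI-1 than isolated ones. The shares were 48.6% and 47.5% of clustered members in the MOLT4 ACBI-1 libraries at 24 h, against 44.4% and 40.8% of isolated ones, and 61.1% and 69.1% at 3 h, against 59.4% and 64.2%. Clustered members were higher in 4 of 4 libraries, by 4.35 points on average, with the smallest exact sign permutation p of 0.125 that 4 libraries allow. The difference was 9.78 points with a gap of 5 kb and 1.36 points with 25 kb. It was 2.52 points with lists of equal length, where the exact p was 0.5. The median DMSO width of clustered members was 396 bp, against 388.5 bp for isolated members. Of 271 pairs of neighbouring members within clusters, 34 had both in all 4 MOLT4 ACBI-1 libraries and 7 had both in none. Another 31 joined a member found in all 4 to one found in none. Over all members, clustered or not, 29.0% were found in all 4 and 21.6% in none, so unrelated pairs would also give such counts. Whether neighbours were alike or different in fate more often than unrelated members was not tested, and is not read from these counts or from the named clusters.

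The second question was whether DND41 cells given ACBI-1 ever had these regions. Few did. A peak was found in DND41 ACBI-1 libraries at 62 members (1.36%) and 59 members (1.30%) at 24 h, and at 27 (0.594%) and 43 (0.947%) at 3 h, a mean of 1.05% ± 0.356 (SD, n = 4). MOLT4 ACBI-1 libraries had 52.7% ± 11.2 of the members (SD, n = 4), 51.7 points more, a contrast that the choice of members favours and that is given with no test. The DND41 mean was 1.67% when replicate 1 of DND41 DMSO at 3 h was left out of the choice, and 1.67% also with lists of equal length.

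In all, 161 members (3.54%) had a peak in at least 1 DND41 ACBI-1 library, against 6.13% of the 23538 regions with a peak in at least 1 MOLT4 and no DND41 DMSO library. The peak was found in 1 library at 135 of them, in 2 at 23, in 3 at 2 and in all 4 at 1. Both replicates had it at 10 members at 24 h and at 7 at 3 h. These peaks were narrow, with median widths of 228.5 and 235 bp at 24 h and 192 and 241 bp at 3 h. Of the 161, 75 (46.6%) also had a peak in all 4 MOLT4 ACBI-1 libraries, as did 1241 (28.3%) of the 4382 that no DND41 ACBI-1 library had. These 1241 are 27.3% of the members, against 6.51% of all regions found in the 4 MOLT4 DMSO libraries. Most of those regions had DND41 DMSO peaks, which the rule kept out of the members. The choice of members thus favours this contrast too, and it is given with no test.

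The rule sets DND41 DMSO at 0, so any peak in DND41 ACBI-1 libraries exceeds it. On sites chosen at the other time, DND41 DMSO libraries had more of the MOLT4-only sites than DND41 ACBI-1 libraries did. At 24 h a peak was found at 2.82% and 2.79% of the sites with ACBI-1, against 6.67% and 5.71% with DMSO. At 3 h it was found at 2.62% and 4.33% with ACBI-1, against 17.9% and 10.9% with DMSO. The ACBI-1 libraries lay below the DMSO libraries at both times, at 3.14% ± 0.798 against 10.3% ± 5.54 over both (SD, n = 4 each). The difference of -7.14 points had the smallest exact permutation p of 0.0556, and was -3.13 points with lists of equal length. Shared sites were also lower in DND41 ACBI-1 libraries, at 78.5% ± 7.51 against 94.2% ± 2.73 with DMSO (SD, n = 4 each). A lower share with ACBI-1 in DND41 was thus not particular to MOLT4-only sites. In ratios, DND41 ACBI-1 libraries had 0.306 of the DMSO share at MOLT4-only sites and 0.833 at shared sites.

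The member found in all 4 DND41 ACBI-1 libraries was chr5:149540939-149541623. It measured 454, 668, 159 and 446 bp there. In MOLT4 it measured 387 and 432 bp with ACBI-1 at 24 h, against 344 and 227 bp with DMSO, and 407 and 289 bp with ACBI-1 at 3 h, against 175 and 167 bp with DMSO. It was wider with ACBI-1 than with DMSO at each time in MOLT4, and 3 of its 4 DND41 ACBI-1 peaks were wider than all of its MOLT4 DMSO peaks.

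A pair of members had a peak in 3 DND41 ACBI-1 libraries. At chr5:101631807-101632740 these measured 168 bp at 24 h and 220 and 205 bp at 3 h, and in MOLT4 the widths were 477, 354 and 433 bp with ACBI-1, against 458 to 627 bp with DMSO. At chr4:9661264-9661788 they measured 401 and 193 bp at 24 h and 237 bp at 3 h, and in MOLT4 474, 165 and 332 bp with ACBI-1, against 223 to 389 bp with DMSO. Of the members in 2 such libraries the widest was chr9:123630784-123631646, with 435 and 257 bp in DND41 ACBI-1 libraries. In MOLT4 it averaged 786 bp ± 36.3 with ACBI-1 and 803 bp ± 47.8 with DMSO (SD, n = 4 each).

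Members were wider than regions that missed the rule by 1 MOLT4 DMSO library. Regions in all 4 MOLT4 and 1 to 3 DND41 DMSO libraries were nearer to the members in width. The median width over all MOLT4 DMSO peaks of the members was 395 bp, against 243 bp for the 2308 regions in 3 of the 4 MOLT4 DMSO and no DND41 DMSO library. Of these 2308, 16.3% had a peak with ACBI-1 at 24 h and 22.1% at 3 h in MOLT4. Regions in all 4 MOLT4 and 1 DND41 DMSO library numbered 1149, with a median of 371 bp, and 40.3% had a peak with ACBI-1 at 24 h and 60.7% at 3 h in MOLT4. For the 1171 regions in all 4 MOLT4 and 2 DND41 DMSO libraries, with a median of 359 bp, the shares were 44.0% and 63.3%. For the 1720 in 3 DND41 DMSO libraries, with a median of 361.5 bp, they were 52.5% and 68.3%. Regions in 1 or 2 DND41 DMSO libraries were thus near the members, at 43.2% and 62.2%. Counting regions in at least 3 MOLT4 DMSO libraries would give 6851, and lists of equal length give 2768.

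Members were found on every chromosome counted. They made up 8.37% of the regions in all 4 MOLT4 DMSO libraries on chromosome 19 and 20.8% on chromosome 4. These were the lowest and the highest of 23, with a median of 17.3%. DND41-only regions also had their lowest share on chromosome 19, at 2.68% of the regions in all 4 DND41 DMSO libraries. Their share was 13.2% on chromosome 4 and highest on chromosome 18, at 20.7%. Chromosome 19, picked after its values were seen, also had the highest share of members with a peak at 24 h of ACBI-1. Its 90 members had one in 74.4% and 66.7% of cases at 24 h and in 65.6% and 70.0% at 3 h, against 44.3% and 41.1% at 24 h and 59.5% and 64.6% at 3 h for the 4453 members elsewhere. The 22 other chromosomes ranged from 33.5% to 55.3% at 24 h. Shared regions on chromosome 19 were also higher than shared regions elsewhere, at 95.5% and 95.5% at 24 h, against 80.7% and 78.7%. Median width was 384.5 bp for members on chromosome 19 and 389.5 bp elsewhere. Copy number was not measured in either line.

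The nearest region with a DND41 DMSO peak lay a median of 15.0 kb from a member, and 10.2 kb from a shared region when that region itself was left out. Of the members, 253 (5.57%) lay within 1 kb of such a region and 327 (7.20%) beyond 100 kb. Members within 12500 bp of one had a peak with ACBI-1 at 24 h in 44.6% and 42.1% of cases, against 45.1% and 41.1% of those farther away. At 3 h the shares were 58.9% and 65.1%, against 60.3% and 64.5%. The 2 kinds differed by less than the replicates did.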

How the data were processed

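The deposited files were peak lists of 1 library each, with 4 columns holding chromosome, start, end and name; positions and widths are therefore the only deposited measurements, with no height, score or count. According to the submitters' processing notes, the tools were MACS2 2.1.1.2016030, Bowtie2, SAMtools and Picard, on hg19; the notes give no settings. No hg19 genome or annotation was at hand, so no gene or sequence is assigned to a region. Groups came from titles.

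Peaks on chromosomes 1 to 22 and X were merged at 1 shared base, and the width of a region in a library is that of its widest peak there. Members and lists were chosen with earlier results of these data known. Tests were two-sided exact permutations over libraries, with labels exchanged within each time, at a threshold of 0.05, run with Python 3.11.15, numpy 2.4.6, pandas 2.3.3 and scipy 1.17.1, and tested on simulated peak calls. Named were the 10 clusters with most members (ties by span, wider first), the 10 widest members, the 5 widest without an ACBI-1 peak in MOLT4, the 5 next widest with one in all 4 libraries, and the 10 found in most DND41 ACBI-1 libraries. Alternatives were other merging, width, list length and gap settings, each library left out, a replicate block and tests without strata.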

Additional observations from a re-analysis of the deposited data

How the results depend on the processing

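Presence of a peak depends on an unknown depth, and no test of ACBI-1 stratified by time within 1 line can reach 0.05, so alternatives are compared by value and direction. Using all sequences, merging at 100 shared bases, joining midpoints within 250 bp or requiring no DND41 DMSO peak within 1 kb left the direction of every tested difference for which it was run as reported. Peaks of at least 200 bp moved the 24 h share of members with a MOLT4 ACBI-1 peak to 45.9%. Lists of equal length gave 2768 members, 59.0% at 24 h, 79.9% at 3 h, 1.67% in DND41 ACBI-1 libraries and 10 clusters. Requiring 3 of 4 MOLT4 DMSO libraries gave 6851 members, 34.2% at 24 h, 48.7% at 3 h and 64 clusters. Gaps of 5 and 25 kb gave 4 and 62 clusters.

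Without strata, the exact permutation p of 4 differences was 0.0286, as small as that test allows: -36.0 and -7.14 points with ACBI-1 in MOLT4 and DND41, -20.6 points between MOLT4-only and shared sites, and -0.27 for log2 width. That test exchanges labels between 24 h and 3 h libraries. For the differences in points these were scored on different sites, and the tag in the peak names differed between times. No call is made from it. The 51.7 points between MOLT4 and DND41 under ACBI-1 are favoured by the choice of members, and no p is read from them. Leaving out each library in turn gave 4543 to 5376 members, 38.7% to 44.9% at 24 h, 56.3% to 64.7% at 3 h, 0.947% to 1.67% in DND41, 23 to 37 clusters, -14.7 to 4.98 points for the contrast of times (positive, at 2.03 and 4.98, without MOLT4 DMSO 3 h replicate 1 or 2) and -14.3 to 2.55 points for the contrast of lines (2.55 without MOLT4 DMSO 3 h replicate 2). Leaving out a DMSO library loosened the rule, and sites scored at the other time were then chosen with fewer libraries. What else moved these values was not tested.

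Replicate numbers showed no pairing of the libraries in the peak calls, where deviations correlated at -0.0189 to 1.8e-05. Whether libraries of the same number shared a culture or a day cannot be told from this. With the replicate block the difference in MOLT4 stayed at -36.0 points. Its exact permutation p was 0.125 and could not be smaller, so the block could make no call.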
